A study of Mus musculus with 8 samples.

Results

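Voltage-gated calcium and sodium channel genes were examined in the hippocampus of FTY720-treated and vehicle-treated mice. The group took in every gene whose symbol in the array annotation marks a pore-forming, alpha2delta, beta or gamma subunit of these channels, and 32 of the 12393 genes measured belonged to it. Of the 40 mouse genes that such symbols cover in the RefSeq table, 8 were not analysed here. The 8 animals were male SCID mice aged 12 weeks, a strain without mature B and T lymphocytes, and all of them went through contextual fear conditioning. The 4 FTY720 mice (replicates 1, 4, 5 and 6) received the drug by mouth in saline at 1 mg/kg on 3 days, and the 4 vehicle mice (replicates 13 to 16) received oral saline on the same schedule. The hippocampus of each mouse was taken 1 hour after the consolidation test, 17 hours after the last treatment, and gave 1 Affymetrix array. FTY720 (fingolimod) is a sphingosine analogue that acts on sphingosine-1-phosphate receptors once phosphorylated. Mice that were not conditioned were not analysed here, so the values describe the drug against saline after a memory test.

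Voltage-gated calcium channels open when the membrane depolarises and let calcium in, which releases transmitter at nerve endings and signals to the nucleus from dendrites. Each is built on a large pore-forming subunit, with an extracellular alpha2delta subunit and a cytoplasmic beta subunit that bring it to the membrane and tune its gating. Most gamma proteins, although named for a muscle calcium channel subunit, act in brain as partners of AMPA-type glutamate receptors. Voltage-gated sodium channels start and carry the action potential, and their pore-forming subunits pair with small beta subunits.

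These channel genes as a group lay close to 0. Of the 32, 15 had a log2 difference (FTY720 minus vehicle) above 0 and 17 below, with a median of -0.017 against 0.0072 over all genes. Of all genes, 53.5% were above 0. The median size without sign was 0.059 for the channel genes and 0.054 for all genes. No channel gene passed an adjusted p of 0.05 (limma with Benjamini-Hochberg adjustment over all genes), where 0% of genes were called and the lowest adjusted p among the channel genes was 0.719. At an unadjusted p under 0.05 there was 1 channel gene, Cacng4, against 6.64% of all genes. Cacng4 was also the only one in which the groups had no overlap, on the lower side. Over all genes 4.49% had none, with FTY720 higher in 2.72% and lower in 1.78%. The precision can be read from the 95% intervals of the differences, which lay inside a 1.5-fold change in both directions for 30 of the 32 genes. The 2 exceptions were Cacng5 and Cacna2d2.

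**Figure D1:**
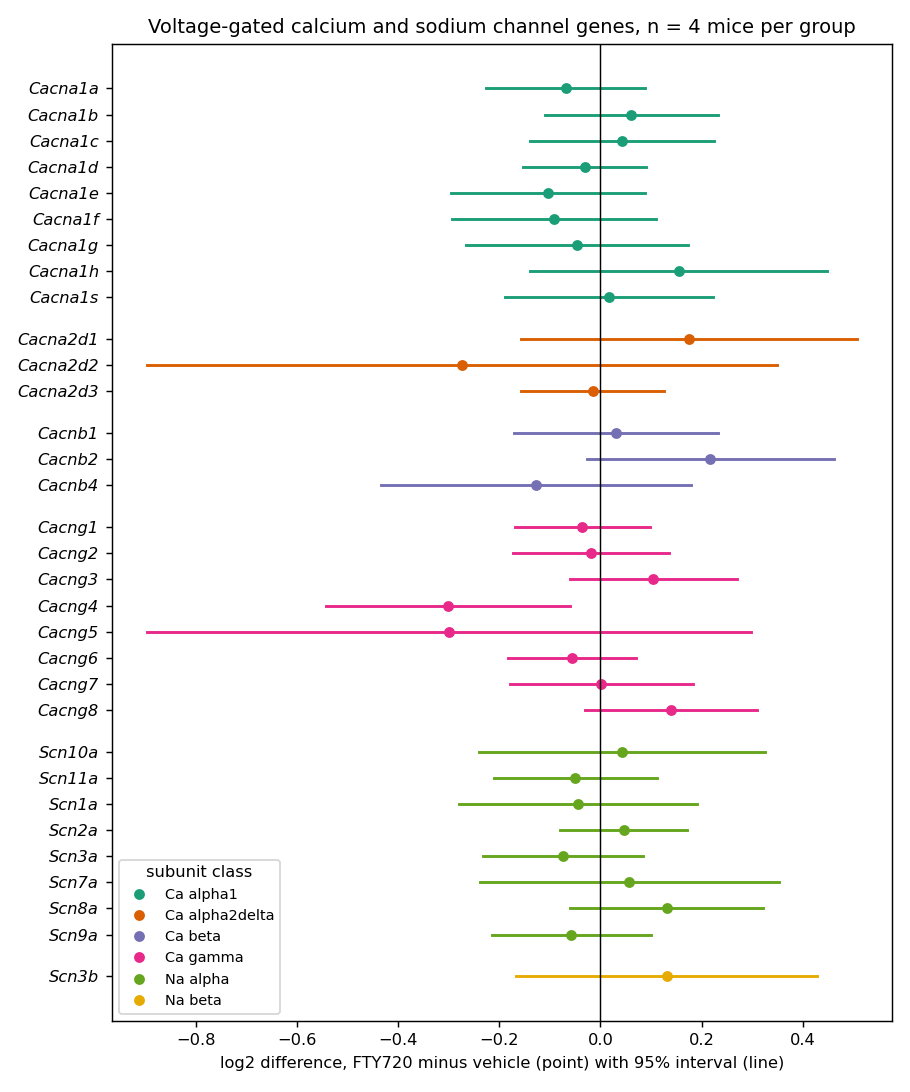
Log2 difference between FTY720 and vehicle mice (horizontal axis, FTY720 minus vehicle) for the 32 channel genes by subunit class, with points for the limma estimate and lines for the 95% interval (n = 4 mice per group). Every interval but that of Cacng4 includes 0, and those of Cacng5 and Cacna2d2 are the widest.

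The array medians lay between 6.68 and 6.72 on the log2 scale, which does not show how alike the arrays were gene by gene. By their median correlation with the other arrays, vehicle 15 (0.994) and vehicle 16 (0.996) stood lowest. Vehicle 16 also had the lowest 5' minus 3' signal, at -1.46 for Gapdh and -2.745 for actin. The next lowest was vehicle 14, at -1.18 and -2.52. Hippocampal markers were present, with Neurod6 at 10.52 in FTY720 and 10.45 in vehicle mice and Wfs1 at 9.86 and 9.89, while the Prox1 probe set gave little signal (3.38 and 3.19). Vehicle 15 had a mean of 1.26 above the 8-mouse mean over 8 thalamus markers and also 1.26 over 6 striatum markers, where the highest other mice stood at 0.23 and 0.40. Over 4 choroid plexus markers it was also the highest, at 1.42. That list varied widely within both groups, with FTY720 mouse 1 at 0.83 and FTY720 mouse 6 at -1.25. Values without vehicle 15, vehicle 16 or both are given below beside several results.

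The gamma family held the largest negative difference of the channel genes. Cacng4 encodes a regulatory partner of AMPA receptors. Its log2 signal was 8.06, 7.92, 7.93 and 7.84 in FTY720 mice 1, 4, 5 and 6, against 8.10, 8.08, 8.59 and 8.19 in vehicle mice 13 to 16. All 4 FTY720 mice lay below all 4 vehicle mice, by a narrow gap, and vehicle 15 stood well above the rest. Cacng4 averaged 7.94 ± 0.09 in FTY720 mice and 8.24 ± 0.24 in vehicle mice (SD, n = 4 each). The difference was -0.30 (95% interval -0.54 to -0.06, limma adjusted p = 0.719), which is 0.812-fold in FTY720 over vehicle. Without vehicle 15 it was -0.19 (limma adjusted p = 0.673). Without vehicle 15 and 16 it was -0.15, with an unadjusted limma p of 0.0585 and an adjusted p of 0.862. Without FTY720 mouse 6 the unadjusted limma p was 0.0535.

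Marker lists of cell types and regions also differed between the groups. The lists were chosen with earlier results of these data known, so the shares of all genes beside them describe and do not test. With every mouse kept, 3 of 15 lists had more than 1 member at an unadjusted limma p under 0.05 in the same direction. These were oligodendrocytes, thalamus and ventral hippocampus. All 7 measured oligodendrocyte markers were below 0 at that level (median -0.33), whereas 2.78% of all genes were lower at it. Without vehicle 16, 5 of the 7 were, and without vehicle 15 and 16, 4 were (median -0.32). Their summed level, as a mean over the list, ran from -0.34 to -0.07 in FTY720 mice and from -0.06 to 0.40 in vehicle mice, with vehicle 16 the highest. Of 5 listed oligodendrocyte precursor markers 3 were measured, all above 0 (Matn4 at 0.15, Cspg4 at 0.07 and Pdgfra at 0.03). Without vehicle 15, and also without vehicle 15 and 16, 2 of these 3 were above 0. Further lists had more than 1 such member once mice were left out. Without vehicle 15 and 16, 5 of 7 interneuron markers were higher at an unadjusted limma p under 0.05 (median 0.18), with 1 below 0. In that fit 3 of 5 dentate gyrus markers were lower at that level (median -0.58), with 1 above 0. So were 2 of 5 endothelial markers (median -0.15). Without vehicle 15, 3 of 6 neocortex markers were lower at that level and 1 higher.

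Of the 8 thalamus markers all were below 0 (median -0.66) and 5 were lower at an unadjusted limma p under 0.05. Without vehicle 15 and 16 there were also 5 (median -0.41). Their list means ran from -0.46 to -0.23 in FTY720 mice and from -0.31 to 1.26 in vehicle mice, where vehicle 16 lay in the FTY720 range. Of 6 ventral hippocampus markers 4 were higher at that level (median 0.68), against 3.86% of all genes. Without vehicle 16 there were 3 (median 0.47), and without vehicle 15 and 16 there were 2 (median 0.42). Their list means ran from -0.08 to 0.41 in FTY720 mice and from -0.69 to -0.02 in vehicle mice. The same gene, Calb2 (-0.26), was counted in the thalamus and ventral hippocampus lists and among the calcium-binding protein genes below. The 6 striatum markers were all below 0 (median -0.42), none at an unadjusted limma p under 0.05, with list means from -0.38 to -0.23 in FTY720 mice and from -0.31 to 1.26 in vehicle mice. Without vehicle 15 their median was -0.17, and without vehicle 15 and 16 it was -0.0077, with 3 of the 6 above 0. The 4 choroid plexus markers were also all below 0 (median -0.67), none at an unadjusted limma p under 0.05. Their list means ran from -1.25 to 0.83 in FTY720 mice and from -0.85 to 1.42 in vehicle mice. Without vehicle 15 the choroid plexus median was -0.25. The part of these cell types and regions in the Cacng4 values was not tested. In whole tissue, fewer cells of a type and less RNA per cell cannot be told apart.

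Cacng5, another gamma gene, had the widest range over the 8 mice of the 32. Its log2 signal was 7.36, 7.49, 7.77 and 7.18 in FTY720 mice, against 7.64, 7.66, 8.59 and 7.11 in vehicle mice. Vehicle 15 was the highest of the 8 and vehicle 16 the lowest, so the groups overlapped. The difference of -0.30 had a 95% interval from -0.90 to 0.30 (limma adjusted p = 0.877), and it was -0.02 without vehicle 15 and -0.51 without vehicle 16. Cacng4 and Cacng5 are neighbours in the mouse genome, with Cacng1 on the other side of Cacng4. Cacng1, the subunit of the skeletal muscle calcium channel, stood at -0.04 (SE 0.06).

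Cacng8 and Cacng3, which encode AMPA receptor partners abundant in forebrain, had differences above 0. Each had a single and rather dim probe set, at means of 5.57 and 5.39, little above the 25th percentile of all genes (5.35). Cacng8 had a log2 signal of 5.66, 5.59, 5.76 and 5.54 in FTY720 mice, against 5.51, 5.68, 5.40 and 5.41 in vehicle mice. Only vehicle 14 reached into the FTY720 range. Its difference was 0.14 (95% interval -0.03 to 0.31, limma adjusted p = 0.787), and 0.04 without vehicle 15 and 16. Without vehicle 14 it was 0.20, at an unadjusted limma p of 0.0152. The lowest limma adjusted p of any channel gene in that fit was 0.643. Cacng3 had a log2 signal of 5.53, 5.44, 5.32 and 5.48 in FTY720 mice, against 5.45, 5.41, 5.16 and 5.35 in vehicle mice, with overlapping groups and vehicle 15 the lowest. Its difference was 0.10 (95% interval -0.06 to 0.27, limma adjusted p = 0.834), and 0.04 without vehicle 15.

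The remaining gamma genes lay near 0. Cacng2, the stargazin gene whose loss causes the seizures and ataxia of the stargazer mouse, stood at -0.02 (SE 0.07). Cacng7 stood at 0.00199 (SE 0.08). Cacng6 had a log2 signal of 4.69, 4.51, 4.71 and 4.71 in FTY720 mice, against 4.69, 4.72, 4.73 and 4.71 in vehicle mice. FTY720 mouse 4 alone was low there, and the difference was -0.06 (SE 0.06).

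**Figure D2:**
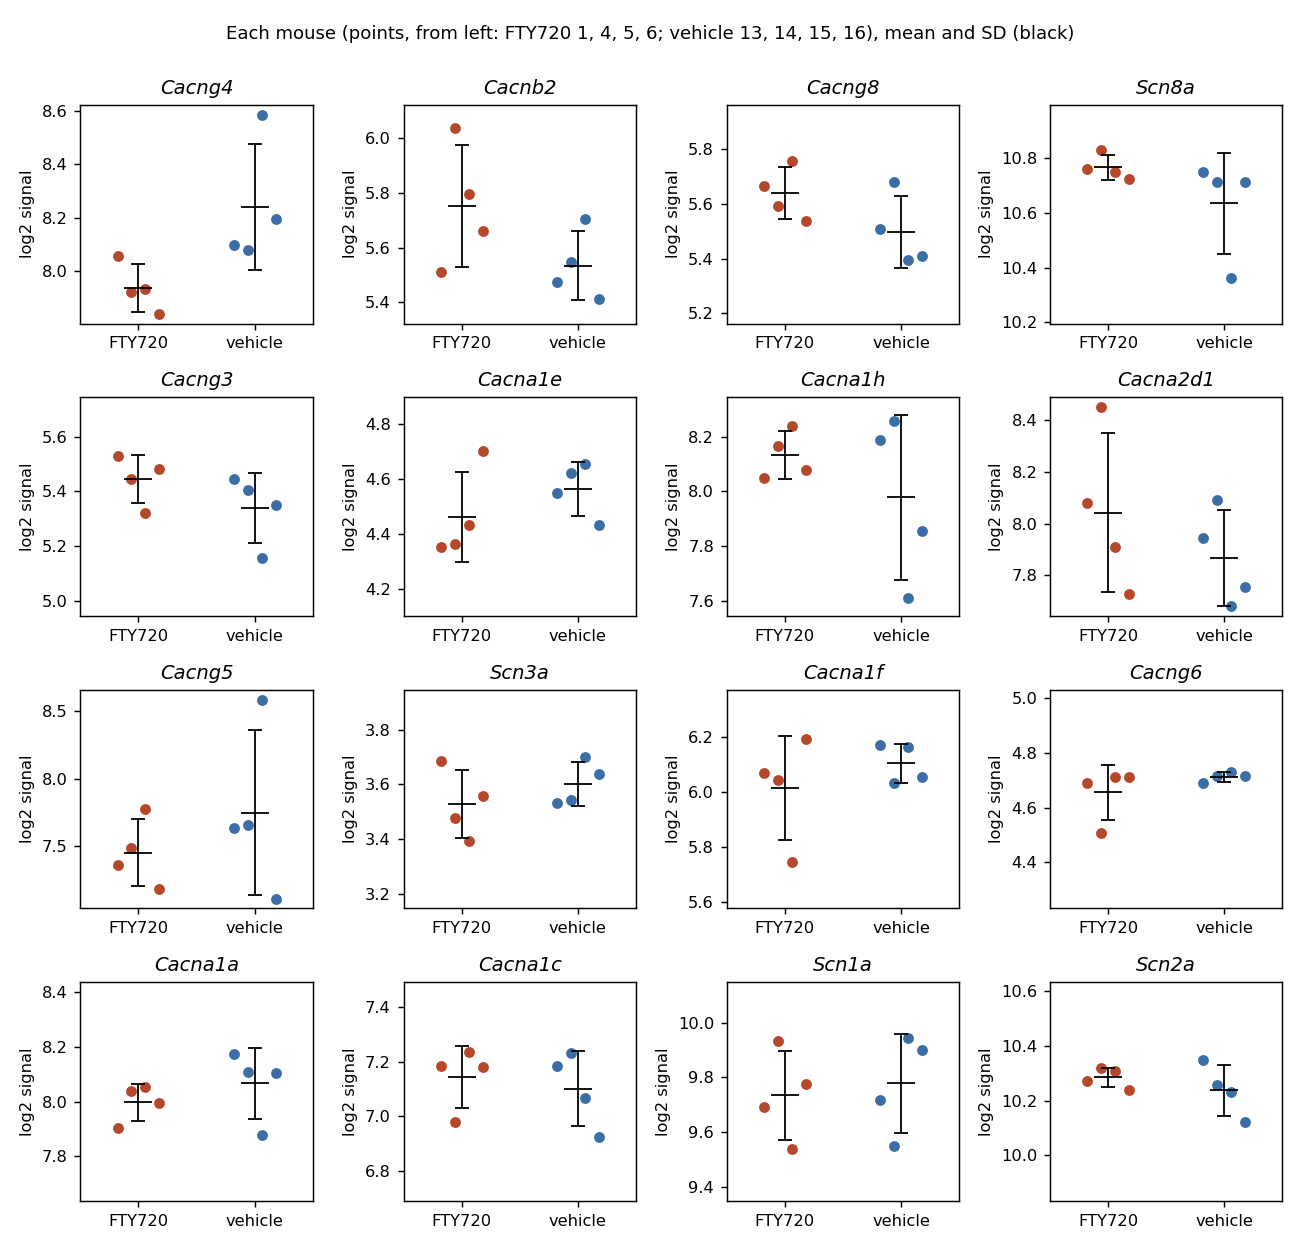
Log2 signal (vertical axes, each with its own range) in every mouse for the 12 channel genes of smallest unadjusted p and for Cacna1a, Cacna1c, Scn1a and Scn2a, with FTY720 left of vehicle and black bars for mean and SD (n = 4 each). Cacng4 alone has groups that do not overlap, and vehicle 15 is the highest point for Cacng4 and Cacng5 and the lowest for Scn8a and Cacna1h.

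Of the 9 pore-forming calcium channel genes, 4 had differences above 0 and 5 below, with a median of -0.03 and a range from -0.10 to 0.15. None had an unadjusted limma p under 0.05 (lowest 0.254). Cacna1c, the main L-type channel of hippocampal neurons, had a log2 signal of 7.18, 6.98, 7.24 and 7.18 in FTY720 mice, against 7.19, 7.23, 7.07 and 6.92 in vehicle mice. The groups shared most of their range, and the difference was 0.04 (95% interval -0.14 to 0.22, limma adjusted p = 0.949). Cacna1d, the other L-type channel of brain, stood at -0.03 (95% interval -0.15 to 0.09), the narrowest interval of all 32 genes. An interval that includes 0 does not show that a level was the same in both groups.

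Channels of nerve endings had small differences too. Cacna1a, which encodes the P/Q-type channel that triggers transmitter release, had a log2 signal of 7.91, 8.04, 8.05 and 7.99 in FTY720 mice, against 8.18, 8.11, 7.88 and 8.11 in vehicle mice. The groups overlapped only through vehicle 15, which was the lowest of the 8. The difference was -0.07 (95% interval -0.23 to 0.09, limma adjusted p = 0.892). Without vehicle 15 it was -0.13, with an unadjusted limma p of 0.0367 and an adjusted p of 0.674. Cacna1b, the N-type channel gene, stood at 0.06 (SE 0.08). Cacna1e, the R-type channel gene, had a log2 signal of 4.35, 4.36, 4.43 and 4.70 in FTY720 mice, against 4.55, 4.62, 4.66 and 4.43 in vehicle mice. FTY720 mouse 6 was the highest and the other 3 FTY720 mice the lowest. The difference was -0.10 (SE 0.09), and -0.18 without FTY720 mouse 6, at an unadjusted limma p of 0.0218. In that fit no channel gene had a limma adjusted p below 0.885.

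Among the low-voltage T-type channels, which shape burst firing, Cacna1h had a log2 signal of 8.05, 8.17, 8.24 and 8.08 in FTY720 mice, against 8.19, 8.26, 7.61 and 7.86 in vehicle mice. Vehicle 15 and 16 were the 2 lowest mice, and vehicle 14 the highest. The difference was 0.15 (95% interval -0.14 to 0.45, limma adjusted p = 0.868), 0.03 without vehicle 15 and -0.09 without vehicle 15 and 16. Cacna1g, the other T-type gene measured, stood at -0.05 (SE 0.10). Cacna1f, the channel of photoreceptors, had a log2 signal of 6.07, 6.05, 5.75 and 6.19 in FTY720 mice, against 6.17, 6.03, 6.16 and 6.06 in vehicle mice, and FTY720 mouse 5 lay below the others. Its difference was -0.09 (SE 0.09), and that of Cacna1s, the skeletal muscle channel, was 0.02 (SE 0.09).

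The auxiliary calcium channel subunits included the largest positive difference. Cacnb2, a beta subunit also known from heart, had a log2 signal of 5.51, 6.04, 5.80 and 5.66 in FTY720 mice, against 5.47, 5.55, 5.70 and 5.41 in vehicle mice. FTY720 mice 4 and 5 lay above every vehicle mouse and the other 2 within the vehicle range. The difference was 0.22 (95% interval -0.03 to 0.46, limma adjusted p = 0.766). With the Gapdh 5' minus 3' signal as a covariate it was 0.04 (SE 0.13). Without FTY720 mouse 4 it was 0.12, and without vehicle 15 it was 0.27, at an unadjusted limma p of 0.0380 (adjusted p = 0.674). Without FTY720 mouse 1 it was 0.30, at an unadjusted limma p of 0.0179. The lowest limma adjusted p of any channel gene in that fit was 0.879. Cacnb2 had a single and rather dim probe set, at a mean of 5.64.

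Cacnb4, the beta subunit mutated in the lethargic mouse, stood at -0.13 (SE 0.14), with 10.61 to 10.90 in FTY720 mice and 10.43 to 11.13 in vehicle mice. Vehicle 14 was the lowest of the 8, and so the mouse that went against the difference. Without it the difference was -0.28, at an unadjusted limma p of 0.00619. The lowest limma adjusted p of any channel gene in that fit was 0.643. Without vehicle 16 the Cacnb4 difference was -0.05, and without vehicle 15 and 16 it was 0.05. Cacnb1 stood at 0.03 (SE 0.09). Cacna2d1, a binding site of gabapentin, had a log2 signal of 8.08, 8.45, 7.91 and 7.73 in FTY720 mice, against 7.94, 8.09, 7.68 and 7.75 in vehicle mice. FTY720 mouse 4 was the highest and the groups overlapped, with a difference of 0.17 (95% interval -0.16 to 0.51, limma adjusted p = 0.868).

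Cacna2d2, a second alpha2delta gene and gabapentin target, was set by 1 mouse. Its log2 signal was 8.17, 8.13, 8.37 and 8.18 in FTY720 mice, against 8.07, 8.17, 9.51 and 8.19 in vehicle mice. The difference of -0.27 (95% interval -0.90 to 0.35, limma adjusted p = 0.890) was 0.07 without vehicle 15. That mouse had the highest thalamus, striatum and choroid plexus marker means given above, whose part in the Cacna2d2 value was not tested. Cacna2d3 stood at -0.02 (SE 0.06), with all 8 mice between 9.75 and 9.97.

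The sodium channels of central neurons showed no difference past the test. Scn8a, which drives firing at axon initial segments and nodes, had a log2 signal of 10.76, 10.83, 10.75 and 10.72 in FTY720 mice, against 10.75, 10.71, 10.36 and 10.71 in vehicle mice. Vehicle 15 was the lowest of the 8, and the other vehicle mice lay in or near the FTY720 range. The difference was 0.13 (95% interval -0.06 to 0.32, limma adjusted p = 0.813), and 0.04 without vehicle 15.

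Scn2a, the channel of excitatory axons, had a log2 signal of 10.27, 10.32, 10.31 and 10.24 in FTY720 mice, against 10.35, 10.26, 10.23 and 10.12 in vehicle mice. These overlapped, and the difference was 0.05 (95% interval -0.08 to 0.17, limma adjusted p = 0.911). Scn1a, which supports firing of inhibitory neurons and is mutated in Dravet syndrome, had a log2 signal of 9.69, 9.93, 9.54 and 9.77 in FTY720 mice, against 9.72, 9.55, 9.94 and 9.90 in vehicle mice. Both groups covered nearly the same range, with a difference of -0.04 (95% interval -0.28 to 0.19, limma adjusted p = 0.962). Scn3b, the only beta subunit gene of the sodium channels measured, stood at 0.13 (SE 0.13), with 10.74 to 11.02 in FTY720 mice and 10.31 to 10.99 in vehicle mice. Without vehicle 16, the lowest mouse, it was -0.0071.

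Sodium channels known mainly from other places or ages had dim probe sets. Scn3a, most active before birth, had a log2 signal of 3.68, 3.48, 3.39 and 3.56 in FTY720 mice, against 3.53, 3.54, 3.70 and 3.64 in vehicle mice, with a difference of -0.07 (SE 0.07). The sensory neuron channels Scn9a, Scn10a and Scn11a stood at -0.06, 0.04 and -0.05, and Scn7a, a sodium sensor of glia, at 0.06. Scn3a, Scn9a, Scn7a and Scn1a, with Scn2a, lie in one gene cluster, and their differences ran from -0.07 to 0.06. In all, 10 of the 32 genes had a mean level below the 25th percentile of all genes (5.35), where summarised signals flatten and a difference is understated. These were Scn3a, Scn7a, Scn9a, Scn10a, Scn11a, Cacna1e, Cacna1s, Cacng1, Cacng6 and Cacng7.

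A second reading came from the other probe sets of the same genes, which the choice of the brightest had left aside. Of the 32 genes, 13 had more than 1 probe set, and in 9 of the 13 all probe sets had the same sign. Among the 47 probe sets, 3 had an unadjusted limma p under 0.05 (that of Cacng4 and a dimmer one each of Cacna1h and Scn2a), against 6.75% of all 20380 probe sets, and none of the 20380 passed adjustment.

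The dimmer probe set of Cacna1h read 5.71, 5.65, 5.70 and 5.66 in FTY720 mice, against 5.53, 5.52, 5.37 and 5.54 in vehicle mice. All FTY720 mice lay above all vehicle mice there, unlike at the brighter probe set. Of all genes, read at their brightest probe sets, 2.72% had no overlap on the higher side. The share over all probe sets was not counted. At the dimmer probe set of Cacna1h the difference was 0.19 (SE 0.05, limma adjusted p = 0.672 over all probe sets). It was 0.15 without vehicle 15 and 16, where the brighter one stood at -0.09. The dimmer probe set of Scn2a read 9.31, 9.47, 9.28 and 9.35 in FTY720 mice, against 9.30, 9.15, 9.14 and 9.02 in vehicle mice. Only vehicle 13 reached the FTY720 range, and the difference was 0.20 (SE 0.07, limma adjusted p = 0.694 over all probe sets). Without vehicle 15 and 16 it was 0.13, at an unadjusted limma p of 0.119.

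Other genes read alike or differed in sign. Scn8a gave 0.13 and 0.17 at its probe sets, Scn3b 0.13 and 0.17, Cacnb4 -0.13 and -0.09, and Scn1a -0.04 and -0.08. Signs differed for Cacna1a (-0.07 and 0.0002), Cacnb1 (0.03, 0.11 and -0.04), Cacng5 (-0.30 and 0.02) and Cacna2d2 (-0.27, -0.04 and 0.05). For Cacng5 the dimmer probe set, at a mean of 4.55, read 4.57 in vehicle 15, against 4.47 to 4.61 in the other vehicle mice, so the high value of that mouse appeared at the brighter probe set only. The same held for Cacna2d2, whose dimmer probe sets read 4.45 and 3.46 in vehicle 15, against 4.06 to 4.49 and 3.45 to 3.81 in the other vehicle mice. Their means were 4.29 and 3.58. Like that of Cacng5, these lay below the 25th percentile of all genes (5.35), where a difference is understated. The dimmer probe sets of both genes therefore cannot decide whether vehicle 15 was high. Cacng4 had a single probe set, so it has no second reading.

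**Figure D3:**
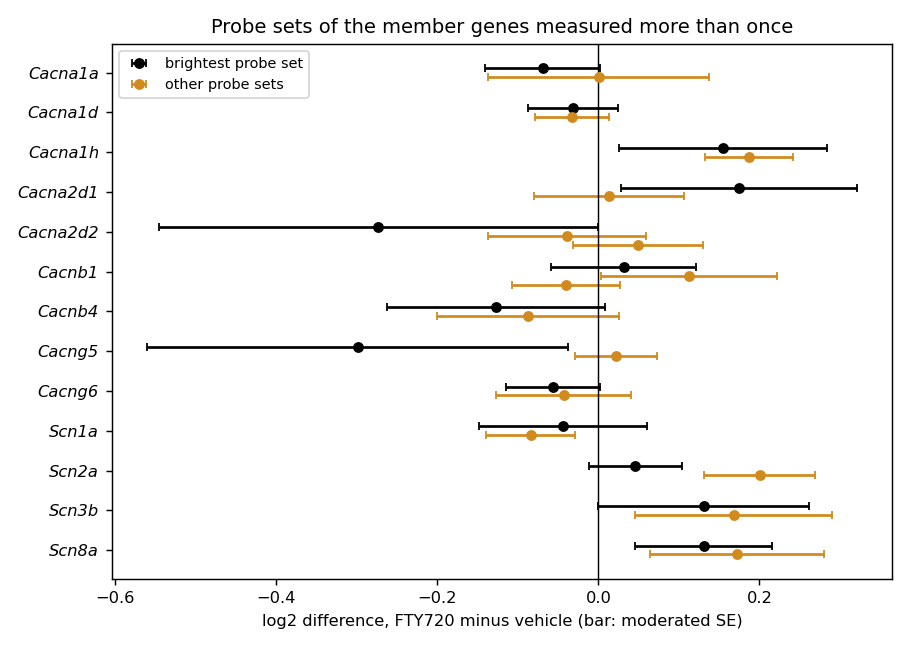
Log2 difference (horizontal axis, FTY720 minus vehicle) at every probe set of the 13 channel genes with more than 1, the brightest in black and the others in orange, with bars for the moderated SE (n = 4 mice per group). Black and orange points lie on the same side of 0 for 9 genes. Cacng5 and Cacna2d2 are low at the brightest probe set only, and their other probe sets are dim.

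Across mice, the channel genes varied somewhat more within groups than genes in general, with a median SD of 0.12 in FTY720 and 0.13 in vehicle mice, against 0.08 and 0.10 over all genes. Vehicle 15 was the highest or lowest of the 8 mice for 15 of the 32 channel genes, against 40.7% of all genes. It was the highest for 7 and the lowest for 8. Vehicle 16 was at an extreme for 10, against 32.1% of all genes. Set against the 8-mouse mean, the mean over all 32 genes ran from -0.02 to 0.01 among FTY720 mice and from -0.04 to 0.05 among vehicle mice.

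**Figure D4:**
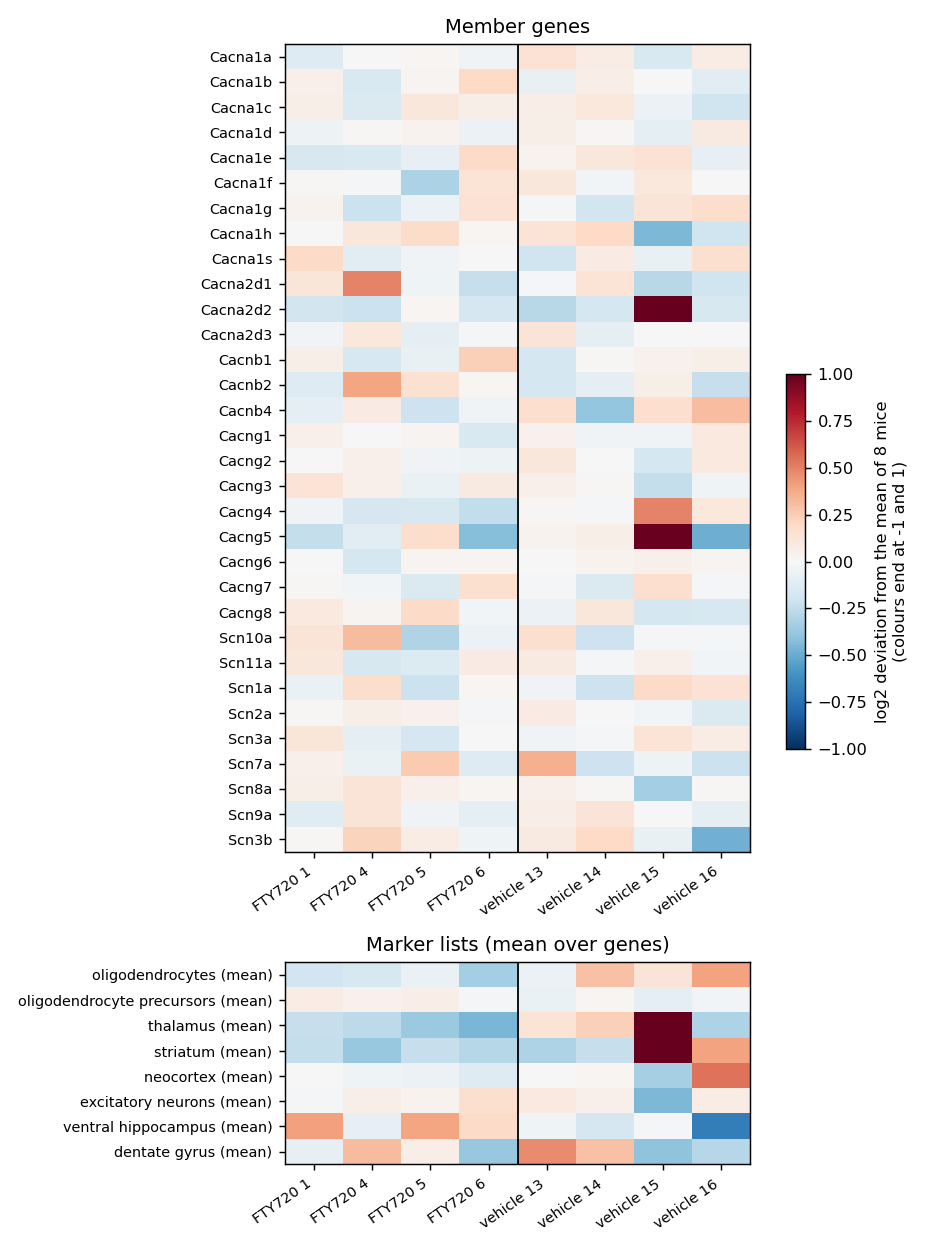
Deviation of each mouse (columns, FTY720 left of vehicle) from the 8-mouse mean on the log2 scale, for the 32 channel genes by subunit class (upper panel) and for the mean of 8 marker lists (lower panel). The deep red cells of Cacna2d2 and Cacng5 and those of the thalamus and striatum lists fall in vehicle 15.

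Genes that work with these channels were read from lists of partners, also chosen with earlier results of these data known. Of 10 measured sodium channel and axon initial segment partners, 2 were higher at an unadjusted limma p under 0.05 and none lower, against 3.86% and 2.78% of all genes. Fgf11, a fibroblast growth factor homologous factor that stays inside the cell, had a log2 signal of 7.46, 7.57, 7.63 and 7.69 in FTY720 mice, against 7.27, 7.27, 7.02 and 7.40 in vehicle mice. The groups did not overlap, on the higher side as for 2.72% of all genes. The Fgf11 difference was 0.35 (SE 0.08, limma adjusted p = 0.634), or 0.16 with all its probe sets averaged. Pkp2, a protein of desmosomal cell junctions, stood at 0.35 (SE 0.12, limma adjusted p = 0.719) and at 0.18 without vehicle 15 and 16. Fgf13 stood at 0.14, Fgf12 at 0.03 and Fgf14 at -0.0045, and Ank3, the anchor of sodium channels at the initial segment, at -0.01 (SE 0.04).

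The AMPA receptor partners of the gamma family were all above 0, 7 of 7 measured, with a median of 0.15. None had an unadjusted limma p under 0.05. Gria1 stood at 0.21 (SE 0.10) and Gria4 at 0.20 (SE 0.10). Gria2, an AMPA receptor subunit that limits calcium entry, had a log2 signal of 12.23, 12.30, 12.28 and 12.26 in FTY720 mice, against 12.20, 12.21, 12.13 and 12.17 in vehicle mice. It was the only member of this list without overlap, on the higher side as for 2.72% of all genes, and its difference was 0.09 (SE 0.04, limma adjusted p = 0.766). With all its probe sets averaged, the Gria2 difference was 0.03 (SE 0.05). By list mean, vehicle 15 stood lowest at -0.28 and vehicle 16 next at -0.11, with the other 6 mice between -0.0035 and 0.14. Without vehicle 15, 5 of the 7 were above 0, and without vehicle 15 and 16 the median was 0.02.

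The other lists held no gene at an unadjusted limma p under 0.05. Of 13 calcium channel partners and regulators 7 were above 0 (median 0.0040), led by the vesicle calcium sensor Syt1 at 0.12 and the channel inhibitors Gem at -0.16 and Rem2 at -0.18. Of 11 genes of calcium stores and extrusion 8 were above 0 (median 0.03), with the plasma membrane calcium pump Atp2b2 at -0.17 (SE 0.08), Slc8a2 at 0.11 and Atp2a3 at 0.07. Of 5 other cation channel genes 2 were above 0 (median -0.0048), with Trpm7 at -0.09, Orai1 at 0.06 and Hcn3 at 0.06. Of 5 calcium-binding protein genes 2 were above 0 (median -0.01), with Hpcal1 at 0.20, Pvalb at 0.16 and Calb1 at -0.07.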

How the data were processed

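Hippocampal RNA of 8 mice was measured on 1 Affymetrix 3' array each, with 100 ng of total RNA as input according to the labels. The deposited table gives a log2 signal for each probe set, and the scale was inferred from the range of 2.31 to 14.5. The submitters' processing notes name Affymetrix Expression Console, MAS5 and RMA without roles, and the method behind the deposited values is not stated. Of 22690 probe sets, 20380 had 1 gene symbol, 691 several and the rest none or were controls. Each gene was represented by its probe set of highest mean. No arrays were identical. No gene was filtered and nothing was renormalised.

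FTY720 was compared with vehicle by limma 3.58.1 under R 4.3.3, a moderated linear model with group as its only term and Benjamini-Hochberg adjustment over 12393 genes. The fit was checked on simulated data with independent noise in each gene and changes placed only in genes above the median level. That check does not cover shifts shared by many genes within a mouse, or dim genes. Replicate numbers differ between groups, and no scan date or slide was given. The number of arrays limits the precision. Every channel gene is named. Values per mouse are given for the 12 of smallest unadjusted p, for any channel gene without overlap, and for Cacna1a, Cacna1c, Scn1a, Scn2a and Scn8a. From each partner list the 3 genes of smallest p are named, and Fgf12, Fgf14 and Ank3 were chosen after their values were seen. Members and lists were chosen with earlier results of these data known. RefSeq (GRCm38.p6) gave gene names and neighbours only.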

Additional observations from a re-analysis of the deposited data

Results flagged for a closer look

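In 3 of 64 groups of 4 values, 1 mouse lay far from the others by Dixon's gap ratio (the gap to the nearest mouse over the whole range), where chance gives about 5% of groups. Cacna2d2 in vehicle 15 had a ratio of 0.917, on the high side. Scn8a in vehicle 15 had a ratio of 0.904, on the low side. Cacng6 in FTY720 mouse 4 had a ratio of 0.899, on the low side, over a range of only 0.23 across the 8 mice.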

How the results depend on the processing

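The count of genes past an adjusted p of 0.05 was 0 in all 18 alternative limma fits, in which the lowest adjusted p ran from 0.166 to 0.972. The count of 1 channel gene at an unadjusted p under 0.05 was 2 without probe sets whose names end in _x_at, _s_at or _a_at. Cacna1h joined there at 0.19, read from its dimmer probe set. The count was also 2 with array weights (Cacnb2 at 0.25 joined). It was 0 when the model held the Gapdh 5' minus 3' signal as a covariate, where Cacng4 stood at -0.32, and between 1 and 3 with single mice left out. Without vehicle 15 and 16 it was also 1, but that gene was Cacna1a (-0.14). The median of the channel genes was 0.0080 when dim genes were left out, which kept 22 of the 32. Without the _x_at, _s_at and _a_at probe sets 28 remained. Of 562 values of single channel genes, 513 kept their side of 0, 36 crossed it with a move of less than 1 SE from the reported value and 13 with a larger move. Among the latter, with the Gapdh covariate Cacng1 stood at 0.045, Scn2a at -0.023 and Scn3b at -0.11. Without vehicle 15 and 16 Cacna1c stood at -0.064, Cacna1g at 0.084, Cacna1h at -0.091, Cacna2d2 at 0.092, Cacnb4 at 0.046, Scn1a at 0.10, Scn2a at -0.017 and Scn3b at -0.079. With single mice left out, Cacna2d2 ran from -0.412 to 0.069 (without vehicle 15) and Scn3b from -0.0071 (without vehicle 16) to 0.218. The cause was not tested. The Gapdh difference was uneven between groups, from -1.08 to -0.80 in FTY720 and from -1.46 to -1.07 in vehicle mice. No paired analysis was possible because the groups share no replicate number.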
